A study of Peromyscus californicus with 17 samples.

Results

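The glucocorticoid receptor gene and its partners were followed in the lungs of male California mice (Peromyscus californicus, a monogamous rodent) that differed in bonding history. The set held 8 genes of the 27786 in the table, taken by their symbols: the receptors Nr3c1 and Nr3c2, the prereceptor enzyme Hsd11b1, and the induced targets Fkbp5, Tsc22d3, Sgk1, Zbtb16 and Klf9. The choice was made with earlier results of these data known, as was that of the gene lists used below. All animals were males of the genetically diverse stock IS, aged 12 to 15 months, and each gave 1 RNA-seq library from whole lung. The 6 bonded males (B1 to B6) had lived with a female for about 4 months. The 6 bond-disrupted males (BD1 to BD6) had been paired for as long, were then taken from the mating cage, and were sampled on day 7 after disruption. The 5 virgin males (V2 to V6) were of similar age and were kept in groups. Animals that share a number are relatives, siblings in most cases and cousins in some. The comparisons ask whether the receptor system of the lung differs with the presence, loss or absence of a mate.

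Glucocorticoids are steroid hormones of the adrenal cortex that rise with stress and with the time of day. Inside the cell they bind the glucocorticoid receptor, encoded by Nr3c1, which leaves its chaperones, enters the nucleus and changes transcription. The mineralocorticoid receptor, encoded by Nr3c2, binds the same hormones and also aldosterone. The enzyme encoded by Hsd11b1 regenerates active hormone from its inactive form, so a tissue can raise its own exposure, and in the lung this enzyme and the receptor are known from the maturation of the alveoli and from the treatment of inflammation. Fkbp5, Tsc22d3, Sgk1, Zbtb16 and Klf9 are induced by the receptor in many tissues and are commonly read as a sign of its activity. The hormone itself was not measured in the files used here.

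The deposited values are FPKM, that is, read numbers scaled for gene length and library depth. In the table each column had been divided by the lengths of other genes, shifted by 1 row more with each column, so that the same gene was divided by a different length in each animal. For Nr3c2 the dividing lengths ran from 106 to 23383 bases, and its deposited values ran from 1.53 to 429 FPKM, a 281-fold range. With each value put on the gene's own length of 6956 bases, the same 17 libraries ran from 4.31 to 7.01 FPKM, a 1.63-fold range. The SD between animals on the log2(FPKM + 1) scale of a typical gene (the median of 13782 genes averaging 100 reads or more) dropped from 1.36 in the deposited values to 0.19 on own lengths. All levels given here are on own lengths.

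**Figure D1:**
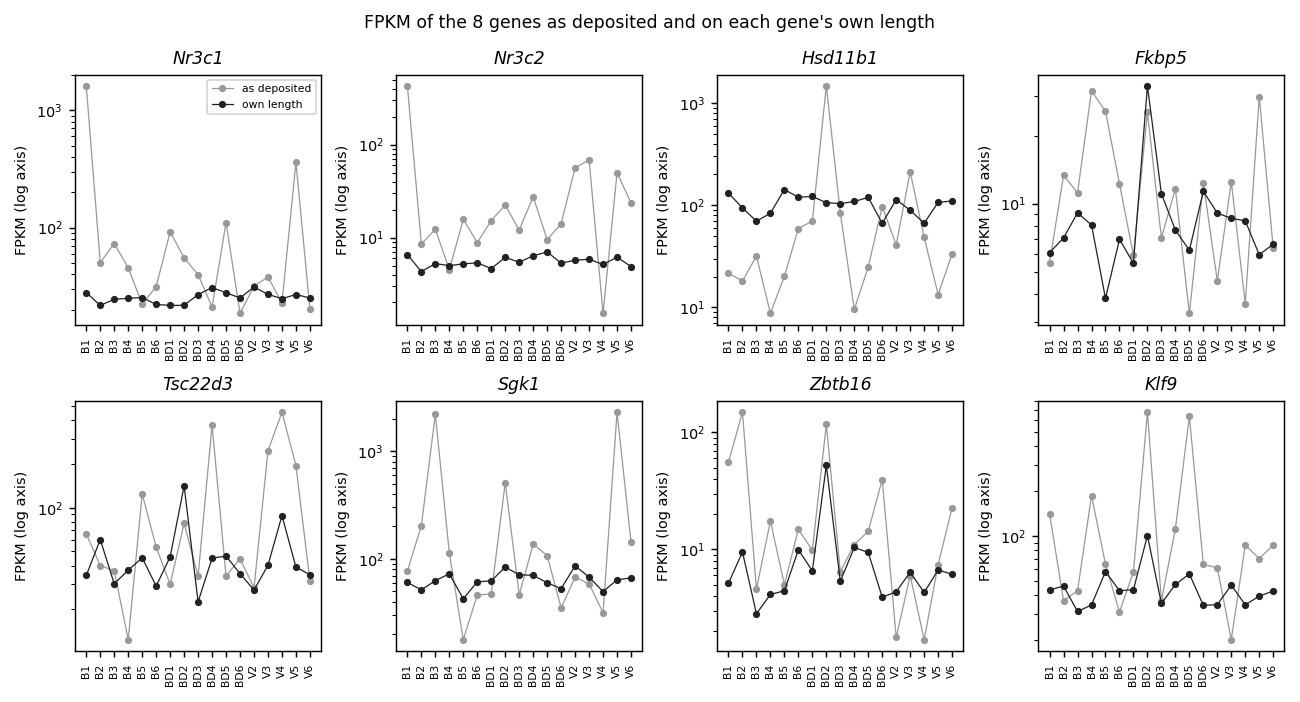
FPKM of each of the 8 genes (log axis) in the 17 animals, grey as deposited and black on the gene's own length. The grey points of Nr3c2 spread 281-fold and the black points 1.63-fold; the high black points of Fkbp5, Tsc22d3, Zbtb16 and Klf9 are those of BD2.

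The recovered depth ran from 29999440 reads (B4) to 65869522 reads (B3) in B, from 44022323 to 59189779 in BD and from 37943220 to 46090228 in V. Read numbers here assume that the 2 mates of a fragment were counted separately, so they carry a 2-fold ambiguity shared by all animals. Lung markers were high in every library: the 3 measured type 2 alveolar cell genes summed to between 14580 and 31638 FPKM. Bond-disrupted libraries stood apart from the rest in several ways. BD1 was the highest of the 17 animals in 14.4% of the 15126 genes tested, but it exceeded every other animal 2-fold in only 11 genes. BD2 was the highest animal in 9.74% of the genes and the lowest in 12.5%, and BD6 exceeded every other animal at least 2-fold in 338 genes, against 2 to 60 genes for each of the other 16. Values without BD2 are therefore given beside many of the results.

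The order of the median levels over the 17 animals, in FPKM, was Hsd11b1 (107), Sgk1 (62.8), Klf9 (42.8), Tsc22d3 (39.0), Nr3c1 (25.2), Fkbp5 (7.64), Zbtb16 (6.13) and Nr3c2 (5.34). The ranges over animals overlapped for every pair of neighbours in this order, for Nr3c1 and Fkbp5 only through BD2. Compared within each animal, Hsd11b1 stood above its neighbour Sgk1 in all 17. Nr3c1 stood above Fkbp5 in all but BD2, and each other pair of neighbours also changed order in some animal. Nr3c1 stood above Nr3c2 in every animal. The reads behind the values ran from 486 for Fkbp5 in one animal to 25462 for Tsc22d3 in another, so counting error was small beside the differences between animals.

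Both receptor genes were steady. Nr3c1 lay between 21.8 and 28.03 FPKM in B (median 24.8), between 21.8 and 30.9 in BD (median 26.05), and at 31.2, 27.0, 24.9, 26.9 and 25.2 in V2 to V6. The 3 groups overlapped, with V2 the highest animal and the lowest values shared by B2, BD1 and BD2. Nr3c2 lay between 4.31 and 6.54 FPKM in B (median 5.23), between 4.63 and 7.01 in BD (median 5.77), and at 5.71, 5.84, 5.14, 6.15 and 4.87 in the virgin animals. Its SD between animals on the log2 scale was 0.16, as was that of Nr3c1, and 30.9% and 31.4% of the genes tested had a smaller SD than Nr3c1 and Nr3c2.

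Hsd11b1 had the highest median level of the 8 genes, though Tsc22d3 stood above it in BD2 and V4. It ran from 69.7 to 142 FPKM in B (median 107), from 66.5 to 122 in BD (median 107), and stood at 113, 89.0, 66.6, 107 and 110 in V2 to V6. Each group had its own high and low animals, with BD6, V4 and B3 low and B5 and B1 high. In 8 of the 17 libraries its reads were whole numbers, whereas in the others they were not, as happens when a read is shared between genes, so part of its level may belong to another gene.

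The induced targets were led by a single animal. Fkbp5, a cochaperone that lowers the receptor's affinity for hormone, ran from 3.81 to 9.11 FPKM in B (median 7.01), and stood at 9.09, 8.61, 8.40, 5.95 and 6.62 in V2 to V6. In BD it was 33.2 in BD2 and between 5.45 and 11.3 in the other 5. Zbtb16, a zinc finger repressor, ran from 2.82 to 9.93 FPKM in B (median 4.78) and from 4.28 to 6.68 in V, and in BD it was 52.3 in BD2 and between 3.90 and 10.4 in the other 5. BD2 thus held the highest value of both genes by a wide gap, and the other 16 animals overlapped.

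Tsc22d3 encodes GILZ, a mediator of the anti-inflammatory action of glucocorticoids. It reached 141 FPKM in BD2 and 88.4 in V4, against 28.9 to 60.4 in B (median 35.7), 22.5 to 46.5 in the other 5 BD animals and 27.1 to 40.2 in the other 4 virgin animals. Klf9, a Krüppel-like transcription factor, was at 100.3 FPKM in BD2, against 31.0 to 57.5 in B (median 43.0), 34.1 to 55.5 in the other 5 BD animals and 34.3 to 46.6 in V. V4, second for Tsc22d3, was among the low animals for Klf9. Sgk1, a kinase that acts on sodium transport, did not follow: it was highest in V2 (86.3 FPKM) and next in BD2 (84.0), with B between 42.7 and 72.8, the other 5 BD animals between 52.9 and 71.2 and the other 4 virgin animals between 49.8 and 67.8.

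**Figure D2:**
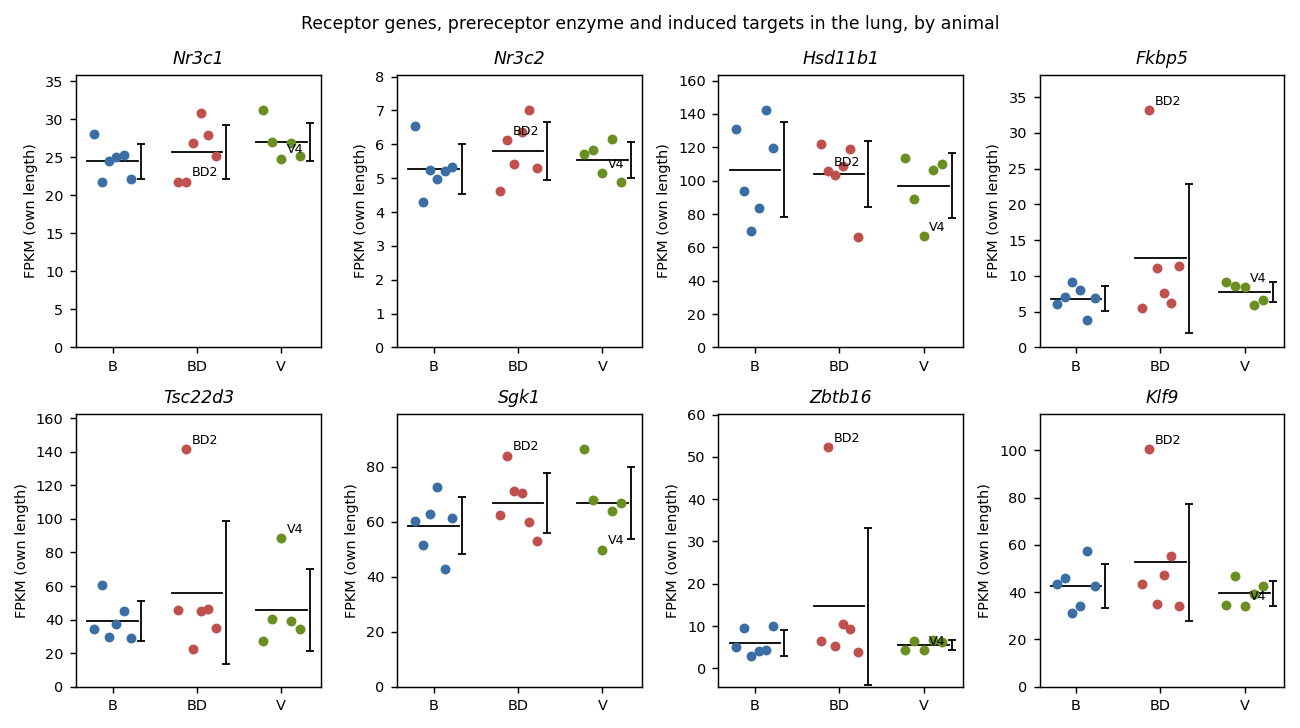
FPKM on own lengths of the 8 genes in bonded (B, n = 6), bond-disrupted (BD, n = 6) and virgin (V, n = 5) animals; points are animals, horizontal lines are group means and bars are ± 1 SD. BD2 is the top point for Fkbp5 (33.2), Tsc22d3 (141), Zbtb16 (52.3) and Klf9 (100.3), while Nr3c1 and Nr3c2 stay in a narrow band.

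No difference between groups passed the test for any of the 8 genes. With limma on log2(FPKM + 1), 0 of 15126 genes passed an adjusted p of 0.1 with a fold change of at least 2 in any comparison (0% called), and none of the 8 genes reached an unadjusted p of 0.05, which 5.88% of all genes tested did between BD and B, 3.54% between V and B and 4.2% between V and BD. Without BD2 these shares of all genes were 7.83%, 4.02% and 7.05%, again with none of the 8 genes among them. The groups overlapped for every one of the 8 genes in each comparison, as they did for all but 0.271% of the genes tested between BD and B, 0.483% between V and B and 0.264% between V and BD.

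Between bond-disrupted and bonded animals the largest differences were those of Zbtb16 and Fkbp5. The log2 difference of Zbtb16 was 0.72 ± 0.44 (SE, limma adjusted p = 0.866), with group means of 14.7 ± 18.6 FPKM in BD and 5.99 ± 2.99 in B (SD, n = 6 each). Without BD2 it was 0.25 ± 0.28 (limma adjusted p = 0.836). Fkbp5 stood at 12.5 ± 10.4 FPKM in BD and 6.84 ± 1.81 in B, a log2 difference of 0.56 ± 0.31 (limma adjusted p = 0.863), which became 0.24 ± 0.20 without BD2 (limma adjusted p = 0.776). With the shared number of relatives as a block, its unadjusted limma p was 0.0442 (adjusted p = 0.857), against 0.0912 without the block; 5.67% of all genes were then under 0.05. It was also under 0.05 without BD1 (0.034) or BD5 (0.0476), as Zbtb16 was without BD6 (0.0498), with adjusted p of 0.602 or more. For Tsc22d3 the difference was 0.30 ± 0.35 with BD2 and -0.01 ± 0.28 without it, and for Klf9 0.23 ± 0.22 and 0.02 ± 0.16. BD2 alone thus carried most of the differences of Zbtb16, Fkbp5, Tsc22d3 and Klf9.

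The remaining genes gave narrower limits. The log2 difference between BD and B was 0.06 for Nr3c1 (95% interval -0.13 to 0.26), 0.12 for Nr3c2 (-0.08 to 0.31), 0.19 for Sgk1 (-0.11 to 0.49) and -0.01 for Hsd11b1 (-0.42 to 0.39). Without BD2 these were 0.11 for Nr3c1, 0.10 for Nr3c2, 0.12 for Sgk1 and -0.02 for Hsd11b1. A doubling of either receptor gene lay well outside these intervals, but for Zbtb16 (-0.22 to 1.66), Fkbp5 (-0.10 to 1.22) and Tsc22d3 (-0.44 to 1.05) it did not. Two-sided exact permutation tests of the 8 genes over the 924 splits of the 12 animals gave p between 0.180 (Fkbp5) and 0.952 (Hsd11b1), where the smallest p possible is 0.00216. Without BD2, the exact permutation p-values ran from 0.294 to 0.957 between BD and B and from 0.357 to 0.802 between V and BD.

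The virgin animals did not stand apart either. Against B, the log2 differences of the 8 genes ran from -0.12 for Hsd11b1 to 0.19 for Sgk1, with 0.14 ± 0.10 for Nr3c1, and exact permutation p-values ran from 0.123 (Nr3c1) to 0.994 (Zbtb16). Against BD they ran from -0.72 ± 0.46 for Zbtb16 to 0.07 ± 0.10 for Nr3c1, with exact permutation p-values from 0.216 to 0.970. BD2 also entered these limits through the shared spread: the SE of the V against B difference was 0.46 for Zbtb16 and 0.33 for Fkbp5 with it, and 0.28 and 0.20 without it, at the same differences. Between V and BD without BD2, the difference of Zbtb16 was -0.26 ± 0.29, that of Fkbp5 moved from -0.38 to -0.06, and that of Tsc22d3 turned from -0.16 to 0.15. Tsc22d3 in V also rested on V4: without that animal its difference from B moved from 0.14 to -0.12.

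**Figure D3:**
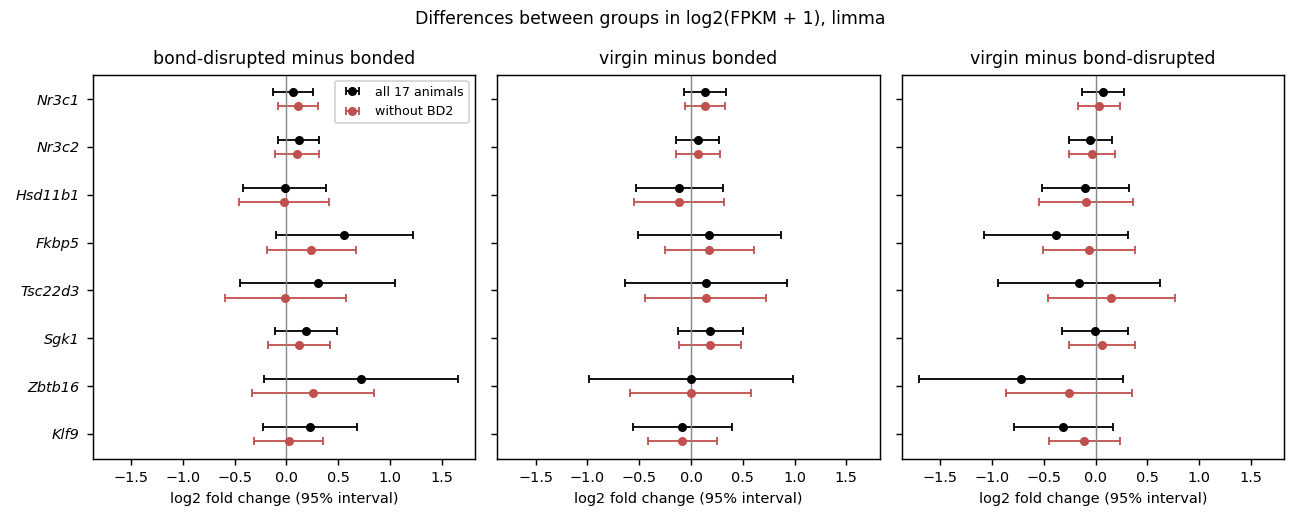
Log2 fold changes of the 8 genes in the 3 comparisons with 95% intervals from limma, black with all 17 animals and red without BD2, whose values also enter the spread behind virgin minus bonded. Every interval includes 0, and leaving out BD2 moves Zbtb16 between BD and B from 0.72 to 0.25.

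The same animal stood out in other genes that glucocorticoids induce. Of 26 further induced genes listed, 21 could be tested. BD2 was the highest animal in 13 of these 21, against 9.74% of all genes tested, and stood at least 2-fold above the median of the other 16 animals in 9 of 21, against 3.15% of all genes. It exceeded every other animal at least 2-fold in 6 of the 21, against 0.397% of all genes. Each of the other 16 animals was highest in 0 to 2 of the 21 (V4 in 2, against 7.79% of all genes for V4) and 2-fold above the others' median in 0 or 1. Among the 8 genes followed here BD2 was highest in 4 and at least 2-fold above that median in the same 4: Fkbp5, Tsc22d3, Zbtb16 and Klf9. In Fkbp5 and Zbtb16 it also exceeded every other animal at least 2-fold.

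The 9 genes are named here after their values were seen. Ddit4, an inhibitor of mTOR signalling, was at 229 FPKM in BD2 and 76.3 in V4, and between 13.4 and 28.9 in the rest. The circadian repressor Per1 was at 30.9 FPKM in BD2 and 14.9 in V4, with 3.75 to 11.5 in the rest. Cebpd, a transcription factor of the acute response, was at 44.7 FPKM in BD2 and 26.5 in V4, with no other animal above 20.4. Klf15, a regulator of amino acid use, was at 27.5 FPKM in BD2, 10.6 in V4 and at most 8.90 elsewhere. For these 4 genes BD2 was first and V4 second, the order also seen for Tsc22d3.

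V4 was not second for the other 5. Pdk4, which restrains glucose oxidation, was at 18.5 FPKM in BD2 against at most 6.41 elsewhere, Map3k6 at 17.04 against at most 5.49, and Errfi1, a feedback inhibitor of the EGF receptor, at 40.6 against at most 18.9. The cell cycle inhibitor Cdkn1a was at 119 FPKM against at most 88.8. Angptl4, an inhibitor of lipoprotein lipase, was at 7.53 in BD2 but at 9.18 in BD3. Anxa1 and Tle3, listed with them, were lowest in BD2 (196 and 7.54 FPKM).

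Genes that glucocorticoids repress were lower in BD2 for some members. Of the 10 tested, BD2 was the lowest animal in 4, namely Tnf, Icam1, Vcam1 and Csf2, against 12.5% of all genes, and the highest in 1, Nos2. Tnf was at 0.119 FPKM in BD2 and between 0.863 and 3.29 in the other 16 animals, and Csf2 at 1.71 against 2.61 to 13.9. Tnf was the only gene of this list at or under 0.5 times the lowest other animal, as 1.91% of all genes were in BD2, while Vcam1 in BD2 (4.75) was next to V2 (4.81). Tnf and Csf2 encode cytokines. Il6 was lowest in V4 (0.310 FPKM), with BD2 at 0.582. Hsd11b2, which inactivates glucocorticoids, was also lowest in BD2, at 9.11 FPKM against 14.3 to 25.8 elsewhere, and Scnn1a, the alpha subunit of the epithelial sodium channel, was highest there, at 44.5 against at most 27.4. These were 1 of the 3 steroid enzymes and carriers and 1 of the 8 mineralocorticoid target and sodium channel genes tested, and the other channel subunits, Scnn1b and Scnn1g, were at 1.008 and 0.86 times the median of the others in BD2.

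**Figure D4:**
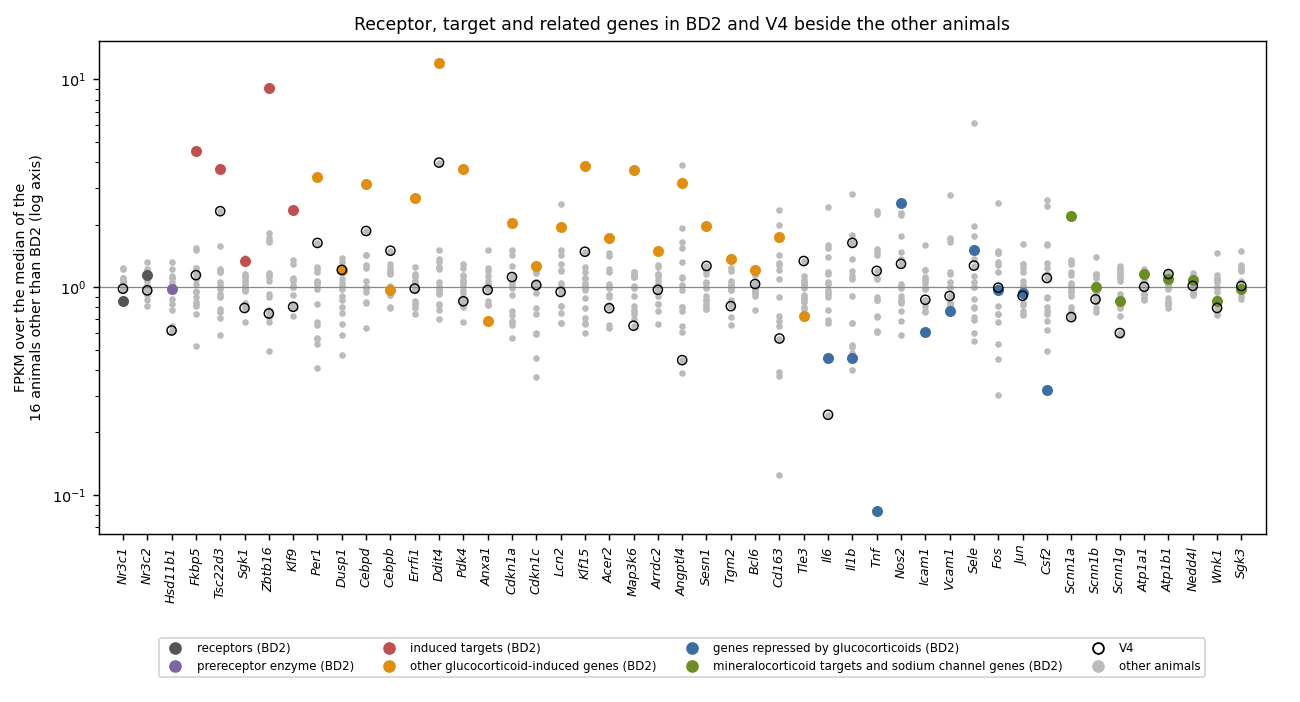
Each gene's FPKM over its median in the 16 animals other than BD2 (log axis); coloured points are BD2 by gene group, open circles V4 and grey points the other animals. Zbtb16 and Ddit4 reach the largest ratios in BD2, Tnf the smallest, and the receptor genes stay near 1.

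Cell type markers moved in BD2 as well. Its summed level of the 3 macrophage genes measured (of 4 listed) was 47.8 FPKM, against 85.2 to 235 in B and 77.1 to 175 in V, and 304 at the top of BD. Of these only Marco was lowest in BD2 (16.1 FPKM, against 48.7 to 196 in the other 16), while Mrc1 (12.4) was near the median of the others (12.1) and Cd68 (19.3) was above B6 (16.9). The 3 B cell genes (of 4) summed to 20.3 in BD2, with 26.5 to 98.0 in B, 45.9 to 108 in V and up to 128 in BD, and each of the 3 was lowest in BD2. The 2 neutrophil genes (of 4) summed to 3.53 and the 3 erythroid genes (of 3) to 1.04 in BD2, both below the other 16 animals (4.96 to 17.1 and 3.86 to 31.3). The 4 fibroblast genes summed to 1174 FPKM and the 5 endothelial genes to 906 in BD2, both above the other 16 (632 to 1061 and 522 to 897), but the members went opposite ways. Dcn (1039 FPKM) made up most of the fibroblast sum and was highest in BD2 with Pdgfra (62.7), whereas the collagen genes Col1a1 (19.8) and Col1a2 (52.0) were lowest there. Pecam1, Tek and Vwf were highest in BD2, and Cdh5 and Kdr were at 0.86 and 0.97 times the median of the others. Among the epithelial markers the sums of BD2 lay within the range of the other 16 animals, but single genes did not. BD2 was the lowest animal for Scgb3a2 (0.18 times the median of the others) and Muc5b (0.073 times, a gene under 10 FPKM in every animal) of the 3 club and goblet cell genes, for Aqp5 (0.42 times) and Rtkn2 (0.56 times) of the 4 type 1 genes, and for Sftpc (0.59 times) of the 3 type 2 genes. Scgb1a1, Hopx and 3 of the 4 ciliated cell genes were above that median in BD2, at 1.24 to 1.37 times. No T cell marker could be measured here. In whole lung, fewer cells of a type and less RNA per cell cannot be told apart, and the part of these shifts in the BD2 values was not tested. The depth of BD2, 44486299 reads, was near the median of 44409598 over the 17 libraries.

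The other genes of the pathway were compared between groups by 8 lists, of which 90 of 112 genes could be tested. None passed an adjusted p of 0.1 in any comparison (lowest limma adjusted p 0.81), so the counts that follow are at an unadjusted p of 0.05. None of the 9 chaperones of the receptor, 10 coregulators, 3 enzymes and carriers of the steroid, 10 repressed genes or 15 immediate early genes reached it between BD and B. Ppid, a cyclophilin of the receptor complex, had the largest difference among the chaperones (-0.15 ± 0.10, log2), and Nos2 among the repressed genes (-0.30 ± 0.30). Without BD2, Nos2 was at -0.54 ± 0.25 and under an unadjusted p of 0.05. The median log2 difference between BD and B, beside 0.01 over all genes tested, was 0.20 over the mineralocorticoid target and sodium channel genes (0.21 without BD2), 0.17 over the 21 further induced genes (0.06 without), 0.14 over the steroid enzymes and carriers (0.12 without) and 0.07 over the coregulators (0.03 without). It was 0.03 over the repressed genes (0.12 without BD2), -0.00082 over the chaperones (0.03 without), and -0.10 over both the clock genes (-0.07 without) and the immediate early genes (0.01 without).

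Between BD and B, 2 of 21 further induced genes and 2 of 8 mineralocorticoid target and sodium channel genes were at an unadjusted p of 0.05, all higher in BD, a direction that 2.82% of all genes tested had. Lcn2, which encodes an iron-binding protein of epithelia and neutrophils, ran from 19.1 to 49.5 FPKM in BD (median 28.8) and from 14.7 to 23.4 in B (median 19.6), a log2 difference of 0.66 ± 0.20. Scnn1b, the beta subunit of the epithelial sodium channel, ran from 15.7 to 24.6 in BD and from 13.3 to 17.5 in B, a difference of 0.32 ± 0.10. Errfi1 and Scnn1a (0.42 ± 0.19 and 0.45 ± 0.19) were no longer at this p without BD2. Lcn2 and Scnn1b were, and Scnn1g, the gamma subunit, was then too. BD6 was the highest animal for both Lcn2 and Scnn1b, and without it their differences were 0.52 ± 0.18 and 0.25 ± 0.09, still at an unadjusted p of 0.05. A type 2 alveolar cell marker moved with these genes: Sftpb, which encodes surfactant protein B, ran from 2634 to 3808 FPKM in BD, from 1710 to 2710 in B and from 2200 to 3573 in V, with log2 differences from B of 0.43 ± 0.14 in BD and 0.39 ± 0.14 in V (limma adjusted p = 0.81 and 1). The other type 2 markers measured, Sftpc and Abca3, differed by 0.17 ± 0.20 and 0.11 ± 0.14 between BD and B, and the part of epithelial cells in the Lcn2 and sodium channel values was not tested.

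Clock genes, some of which carry glucocorticoid response elements, differed in both directions. The study's methods do not give the hour of tissue collection, and its part in these values was not tested. Bmal1, an activator of the clock, was 0.43 ± 0.18 higher in BD than in B and Ciart, a repressor, 0.46 ± 0.17 lower on the log2 scale, 2 of the 14 tested, where 2.82% of all genes were higher and 3.06% lower at this p. Without BD2, Bmal1 was no longer at an unadjusted p of 0.05 while Dbp, Per3 and Ciart were, all lower in BD. Between V and BD, where 2.16% of all genes were higher in V and 2.04% lower, Dbp (0.72 ± 0.33), Per3 (0.51 ± 0.23) and Ciart (0.39 ± 0.18) were higher in V and Bmal1 lower (-0.45 ± 0.19). Without BD2, Bmal1 was no longer at this p in that comparison and Cry2 was, higher in V. V5 was the highest animal for Dbp, Per3 and Ciart.

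In the same comparison 4 of 21 induced genes were lower in V than in BD: Lcn2 (-0.84 ± 0.20), Angptl4 (-0.79 ± 0.34), Errfi1 (-0.43 ± 0.20) and Arrdc2 (-0.26 ± 0.11). Of these only Lcn2 was still at an unadjusted p of 0.05 without BD2. The nuclear receptor Nr4a1, an immediate early gene, was higher in V than in both other groups, with 0.60 ± 0.18 against BD (0.54 ± 0.19 without BD2) and 0.53 ± 0.18 against B on the log2 scale, where V ran from 12.7 to 24.2 FPKM, BD from 9.13 to 13.9 and B from 7.64 to 15.7. Against B, where 2.06% of all genes were higher in V and 1.48% lower at this p, V was also higher for Scnn1b (0.24 ± 0.10), Nedd4l (0.15 ± 0.06), the coactivator Ncoa2 (0.21 ± 0.10) and Serpina6 (0.80 ± 0.26), the corticosteroid-binding globulin, whose level stayed at or under 2.58 FPKM and was listed at 0 in 5 animals. No virgin comparison of these genes passed the adjusted test. With the number of relatives as a block, the 6 list genes at an unadjusted p of 0.05 between BD and B with all animals (Lcn2, Errfi1, Scnn1a, Scnn1b, Bmal1 and Ciart) kept it (limma adjusted p of 0.857 or more), and the clock output gene Hlf (-0.45 ± 0.19) also had it. With the block 3.74% of all genes were under 0.05 between V and B and 3.81% between V and BD. Scnn1b, Nedd4l and Ncoa2 between V and B and all 4 clock genes between V and BD were then no longer under 0.05, while Tle3 against B and Serpina6 against BD were, both higher in V.

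Pairs of the 8 genes were compared over the 17 animals after the group means were taken away. With all animals, 0 of 28 pairs passed an adjusted p of 0.05 by permutation of animals within groups. The closest pair was Zbtb16 and Klf9 (Pearson r = 0.86, permutation p = 0.00224, adjusted p = 0.0627; Spearman rho = 0.70, adjusted p = 0.0627), and 0.185% of all genes tested had a higher r to Zbtb16. Without the 2 animals farthest from the median of Zbtb16 (BD2 and BD6), their r was 0.61. The group means were then still those of all 17 animals, so the removed animals still shaped the values. Without BD2 alone, with the group means taken anew, their r was 0.64 (permutation adjusted p = 0.118). Tsc22d3 and Klf9 had r = 0.68 with all animals and 0.33 without BD2, and Fkbp5 and Zbtb16 0.54 and -0.38. The agreement of Fkbp5 with Zbtb16 thus rested on BD2.

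Without BD2, a removal picked out after its values were seen, 3 of 28 pairs passed by permutation. Nr3c1 and Nr3c2 varied together (r = 0.76, adjusted p = 0.0226; rho = 0.84, adjusted p = 0.0137). Fkbp5 ran opposite to Hsd11b1 (r = -0.73, adjusted p = 0.0226; rho = -0.73, adjusted p = 0.0421) and to Klf9 (r = -0.78, adjusted p = 0.0226; rho = -0.65, adjusted p = 0.101). With all 17 animals the values were 0.63 for the receptor pair (permutation p = 0.0159, adjusted p = 0.159; rho = 0.69, adjusted p = 0.0627), -0.40 for Fkbp5 and Hsd11b1 (permutation p = 0.124, adjusted p = 0.434; rho = -0.72, adjusted p = 0.0521) and 0.31 for Fkbp5 and Klf9 (permutation p = 0.395, adjusted p = 0.622; rho = -0.41, adjusted p = 0.493). With the 2 animals farthest from the median of 1 gene left out, r was 0.53 for the receptor pair (by Nr3c1, without BD1 and BD4), -0.39 for Fkbp5 and Hsd11b1 (by Hsd11b1, without B3 and BD6, so with BD2 kept) and -0.66 for Fkbp5 and Klf9 (by Fkbp5, without BD1 and BD2). These values also kept the group means of all 17 animals.

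**Figure D5:**
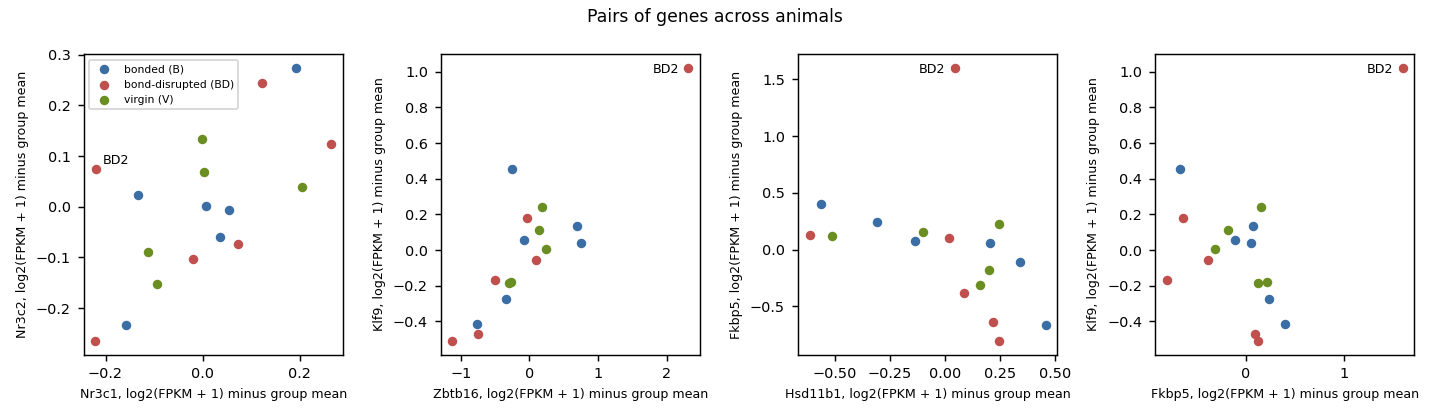
Log2(FPKM + 1) minus the group mean for 4 pairs of genes in the 17 animals, coloured by group. BD2 lies far from the rest on Zbtb16, Klf9 and Fkbp5, and with it left out Fkbp5 is lower in animals where Hsd11b1 and Klf9 are higher.

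For each of the 8 genes, the 3 genes most like it over the 17 animals were found by Pearson r on the same scale, among all genes tested. The 24 values ran from 0.80 to 0.94. Tsc22d3 was most like Per1 (0.94), Klf15 (0.92) and Gnmt (0.90), of which Per1 and Klf15 are on the list of induced genes, and without BD2 the values were 0.88, 0.85 and 0.79. Zbtb16 was most like Rph3al (0.93), Slc6a9 (0.92) and LOC128125453 (0.90), which gave 0.79, 0.76 and 0.64 without BD2. Klf9 was most like Paqr4 (0.94), Tgfbr3 (0.94) and Fzd4 (0.93), with 0.87, 0.87 and 0.84 without BD2. Fkbp5 was most like Lrp8 (0.91), Usp48 (0.85) and Fosl2 (0.85), and without BD2 Usp48 was at 0.61.

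Ranked without BD2, all 3 genes nearest to Fkbp5 and all 3 nearest to Zbtb16 were others, led by Actr2 (0.90) and Gorasp1 (0.87). For the receptors and Hsd11b1 the r of the genes named next moved little without BD2, although Lmtk2 (0.93) then came first for Nr3c1 and LOC128109111 (0.95) for Hsd11b1. Nr3c1 was most like Npnt (0.93), Usp25 (0.92) and Nfatc3 (0.90), with 0.92, 0.90 and 0.88 without BD2. Npnt encodes nephronectin, a matrix protein of the alveolar epithelium. Nr3c2 was most like Cbfa2t2 (0.84), Spon1 (0.84) and LOC128115702 (0.80). Hsd11b1 was most like Lhfpl6 (0.93), Wnt2 (0.92) and Nuak1 (0.91), all at 0.91 or more without BD2, where Wnt2 is a ligand made by lung fibroblasts and ran from 21.3 to 44.5 FPKM. Sgk1 was most like Plekha7 (0.82), Eps15l1 (0.81) and Fbxl18 (0.80).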

How the data were processed

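Lungs of 17 animals were sequenced after a stranded library preparation, 1 library per animal. The submitters' processing notes name FastQC, Trim Galore 0.4.5, STAR 2.7.2, SAMtools 1.5, featureCounts and Subread 1.5.3; the genome build and annotation are not given in the sources used here. The authors deposited FPKM, and the study tested them with limma. Here the shifted lengths were undone. Depth came from small RNA genes of known RefSeq length (assembly ASM782708v3), and each length was the integer giving most whole reads near an additive estimate. Of 27787 lengths 26569 were recovered, 25494 genes had all values, 1482 of 1565 small RNA lengths equalled RefSeq, and 98.4% of 352761 values were whole within 0.01 reads. The small RNA and whole-read figures are partly built in. Depth was set from the same small RNA genes, and lengths were picked to give whole reads. Group names in the labels gave the groups.

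limma 3.58.1 (R 4.3.3) was run on log2(FPKM + 1) over genes reaching 1 FPKM in any animal, with 3 groups in 1 fit and Benjamini-Hochberg adjustment over 15126 genes. Genes were called at a fold change of 2 or more with adjusted p below 0.1. A fold change on this scale understates that of low genes. The calls were also tried on simulated data for BD against B. On own lengths (14861 genes, 0 false calls), 100% of 48 genes raised 4-fold and 29.2% of 48 raised 2-fold were called. Of 49 each lowered 4-fold and 2-fold, 87.8% and 24.5% were called. All of these had limma adjusted p below 0.1, so those not called missed the fold change threshold. With shifted lengths (18499 genes, 43 false calls), 14% and 4% of 50 each raised 4-fold and 2-fold were called. The share called among genes as variable between animals as Zbtb16 (log2 SD 0.85) was not tested. Pairs were tested with 100000 permutations; exact tests enumerated all splits. All tests were two-sided. Alternatives were the values as deposited, an additive fit, pseudocounts of 0.1 and 0.01, other filters, trend, scalings, voom on recovered reads, a block for relatives and each animal left out.

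Named genes were the 8 genes, genes of the lists at an unadjusted p under 0.05 (otherwise that with the largest difference between BD and B), the 3 most alike to each, and markers. Outside this rule, list genes and markers were named for their levels in BD2, and genes for their rank or p without an animal or with the block, after their values were seen. The 8 genes and the lists were chosen with earlier results of these data known. According to the study, relatives share a number. Over 16 pairs of equal number the deviations from group means correlated between -0.34 and 0.41, above 0.1 in 6, of which 5 were among the 6 pairs of B and BD; as not every pair was above 0.1 and the labels do not name the relation, the block is an alternative. Intervals cover the spread between animals. Python 3.11.15, scipy 1.17.1 and numba 0.67.0 were used. Sequences of the genes are not shown, as no sequence file was used here. 1 result of the lists is not reported here.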

Additional observations from a re-analysis of the deposited data

Results flagged for a closer look

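Of the 8 genes 2 were marked for a closer look because 1 animal lay far from the rest of its group, by Dixon's ratio of the gap to the nearest animal over the group's whole range on the log2 scale. Both are in the bond-disrupted group. Zbtb16 in BD2, at 52.3 FPKM against 10.4 in the next animal, had a ratio of 0.647. Hsd11b1 in BD6, at 66.5 FPKM against 103.5 in the next animal, had a ratio of 0.732. 24 groups of values were examined, and chance marks about 1 in 20. The 2 animals also stood apart in other genes, as described above, and the part of library or tissue differences in these values was not tested.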

How the results depend on the processing

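No alternative brought any of the 8 genes past the threshold. With the values as deposited, 40 genes were called between BD and B, 113 between V and B and 35 between V and BD, none of them among the 8, against 0 on own lengths. As deposited, the log2 difference between BD and B turned for Zbtb16 (-0.039), Hsd11b1 (1.74), Nr3c1 (-0.73), Fkbp5 (-0.60), Sgk1 (-0.42) and Nr3c2 (-0.19), that between V and B for Hsd11b1 (0.98), Nr3c1 (-0.71) and Fkbp5 (-0.69), and that between V and BD for Tsc22d3 (0.94), Sgk1 (0.54) and Nr3c2 (0.65). Differences near 0 turned elsewhere: with the additive fit Hsd11b1 between BD and B (0.058) and Zbtb16 between V and B (0.014), the latter also with pseudocounts of 0.1 (0.013) and 0.01 (0.015), and with quantile normalization Sgk1 between V and BD (0.071). An analysis chosen after seeing the data, the exact test without BD2, gave -0.011 for Tsc22d3 between BD and B, and 0.15 for Tsc22d3 and 0.063 for Sgk1 between V and BD. Of 328 values outside the removal of single animals, 20 turned sign, 12 of them as deposited.

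Leaving out 1 animal turned 9 of the 24 differences. Between BD and B these were Tsc22d3 (-0.011 to 0.51) and Hsd11b1 (-0.13 to 0.11), between V and B Tsc22d3 (-0.12 to 0.29), Zbtb16 (-0.16 to 0.15), Hsd11b1 (-0.23 to 0.012) and Klf9 (-0.17 to 0.0060), and between V and BD Tsc22d3 (-0.43 to 0.15), Hsd11b1 (-0.22 to 0.027) and Sgk1 (-0.10 to 0.094). The number of genes called ranged from 0 to 1 between BD and B and between V and B, with 1 only without B4, and the number of the 8 genes at an unadjusted p of 0.05 between BD and B ranged from 0 to 1, with 1 without BD1, BD5 or BD6. Pairs of genes that correlated ranged from 0 to 3, with 3 without BD2, 2 without V4 and 1 without B5 or B6; 1 pair passed with no subtraction of group means and 2 by Spearman's rho without BD2.

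With the number of relatives as a block, 0 genes were called, and 1 of the 8 genes, Fkbp5 between BD and B (0.56 ± 0.25), was at an unadjusted p of 0.05. The block changed no other call; list genes that moved across an unadjusted p of 0.05 with it are named above, where the block and the removal of BD6 were applied to the lists after seeing the data. At an unadjusted p of 0.05, voom on recovered reads split the genes between BD and B into 231 higher and 929 lower, against 427 and 463, and those between V and B into 209 and 410, against 311 and 224. Median-ratio scaling gave 239 and 286 between V and B, and 276 and 403 between V and BD, against 326 and 309. The cause of these changes was not tested. With 5 or 6 animals per group, the 95% intervals given above set the limit on what could be seen.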
